A study of Mus musculus with 12 samples.

Results

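The antioxidant genes under the transcription factor NRF2 were followed in bone marrow-derived macrophages (BMMs) of wild-type (WT) and IGF2BP2 knockout (KO) mice, without treatment and after IL-4. The set was chosen by name and holds 10 of the 38887 genes in the files, namely Nfe2l2, Keap1, Nqo1, Gclm, Gclc, Srxn1, Txnrd1, Prdx1, Gsr and Cat, and all 10 passed the filter on low counts. IGF2BP2 is an RNA-binding protein, and the study asked what its loss changes in macrophages under anti-inflammatory stimulation. BMMs were grown from bone marrow for 6 days with 50 ng/ml M-CSF, the growth factor that drives macrophage differentiation, and sequenced after poly(A) selection as single reads of 75 nt.

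The design had 4 groups of 3 libraries. WT M0 and KO M0 macrophages were left untreated, and WT M2 and KO M2 macrophages received IL-4 at 20 ng/ml for 8 h. The KO mice carried loxP sites around exons 4 and 5 of Igf2bp2 and expressed Cre recombinase from the Lyz2 locus, which is active in myeloid cells and not in macrophages alone. The WT mice were littermates without floxed alleles, with Cre present in some and absent in others, and which library had Cre is not given. Bone marrow came from mice of 3 to 4 months, and each group held cells of 3 mice per the study's text. Libraries are called by the number in their labels (1 to 3), and the labels do not say in words whether the M0 and M2 libraries of 1 number share a mouse.

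NRF2, the product of Nfe2l2, is held at a low level by KEAP1, an adaptor that brings it to a CUL3 ubiquitin ligase for degradation. Oxidants and electrophiles modify KEAP1, NRF2 then accumulates, pairs with a small MAF protein and binds antioxidant response elements in the DNA of its target genes. In macrophages these targets supply glutathione, regenerate thioredoxin and peroxiredoxin and remove peroxides that arise during phagocytosis and inflammation. The targets in the set fall into a quinone reductase (Nqo1), the glutathione genes (Gclm, Gclc, Gsr), the thioredoxin and peroxiredoxin genes (Srxn1, Txnrd1, Prdx1) and catalase (Cat). All 10 are protein-coding, and on GRCm38 (GENCODE M21) they lie at chr2:75675513-75704641 (Nfe2l2), chr9:21229730-21239361 (Keap1), chr8:107388225-107403206 (Nqo1), chr3:122245557-122270732 (Gclm), chr9:77754535-77794485 (Gclc), chr8:33652523-33698163 (Gsr), chr2:152105516-152111376 (Srxn1), chr10:82833951-82897712 (Txnrd1), chr4:116685544-116700822 (Prdx1) and chr2:103453849-103485160 (Cat).

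The antioxidant response element is commonly written as TGACNNNGC, where N is any base. It was searched on both strands in RefSeq promoter windows (GRCm38.p6) of 300 bases, from 250 before to 50 after each annotated start. Of the 10 genes 8 had a window, while Gclc and Gsr did not, and 5 of the 8 held a match: Nfe2l2, Gclm, Srxn1, Txnrd1 (in 1 of its 3 windows) and Prdx1. Of all 27025 genes with a window 14.0% held a match, as did 17.0% of the 9691 that were tested for expression. The matches are shown with 9 bases on either side, 5′ to 3′, because they hold the letters of the element that NRF2 binds, and the capitals mark the 9 bases of the element.
Nfe2l2: cagcccaccTGACTCCGCcatgccccg
Gclm: cgtgagagtTGACGGTGCgcccgggag
Srxn1: gtctcactcTGACCTAGCtgcccactg
Txnrd1: gtgtcagaaTGACAAAGCaaaaatcca
Prdx1: tacgggggaTGACTCAGCgctttccct
All 5 lie on the minus strand of the genome, at chr2:75704886-75704912 (Nfe2l2), chr3:122245414-122245440 (Gclm), chr2:152105543-152105569 (Srxn1), chr10:82859105-82859131 (Txnrd1) and chr4:116685457-116685483 (Prdx1). That is the strand of the gene for Nfe2l2 and the opposite strand for the other genes. Counted along the gene from 0 at the annotated start, the first base of the match was at -240 in Nfe2l2, -134 in Gclm, 28 in Srxn1, -92 in Txnrd1 and -133 in Prdx1.

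The element can overlap the AP-1 site TGACTCA, and the Prdx1 match contains it. The combined letters TGACTCAGC were found in Prdx1 alone among the 8 genes and in 0.503% of all genes with a window. TGACTCA by itself was present in Srxn1 and Prdx1 (5.95% of all genes). Apart from the TGACNNNGC matches, Srxn1 held it at a pair of places and Prdx1 at 1 further place, shown here with the 7 bases of the AP-1 site in capitals.
Srxn1, first site: acagcgtggTGACTCAggccctccg
Srxn1, second site: cccggccgcTGACTCAgggtgaatt
Prdx1, further site: acgaggaaaTGACTCAaagggcagt
Those of Srxn1 lie on the minus strand, at chr2:152105413-152105437 and chr2:152105470-152105494, and start at -102 and -45. That of Prdx1 lies on the plus strand at chr4:116685353-116685377 and starts at -237. The looser form TGANNNNGC was found in 6 of the 8 genes, Keap1 in addition, and in 45% of all genes. A match of letters says nothing on binding, and elements outside these windows were not searched.

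Levels of different genes were compared in TPM, which accounts for transcript length. In WT M0 macrophages Prdx1, a peroxiredoxin that reduces hydrogen peroxide, had by far the highest level (3950 ± 135 TPM, mean ± SD, n = 3) and ranked 15th of the 12846 genes tested. Txnrd1 (490 ± 78.1 TPM) and Gclm (471 ± 38.5 TPM) followed and their libraries overlapped, as did those of Cat (336 ± 31.6 TPM) and Srxn1 (322 ± 39.5 TPM). Gsr (159 ± 19.2 TPM) and Nfe2l2 (138 ± 5.52 TPM) also overlapped, Gclc stood apart at 67.8 ± 11 TPM, and Keap1 (35.5 ± 1.21 TPM) and Nqo1 (28.9 ± 8.51 TPM) were lowest. All 10 lay above the median of the tested genes, which was 18.7 TPM.

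The order of levels moved little between groups at its top, as Prdx1 was first in all 4 groups. Summed over the set, the level was 6000 ± 95 TPM in WT M0 and 6170 ± 323 TPM in KO M0, of which Prdx1 was 65.8% and 72.6%. After IL-4 the sum was 3260 ± 35.4 TPM in WT and 3460 ± 138 TPM in KO. Gsr lost the most places, from rank 1021 to rank 3398 of all tested genes in WT and from 1020 to 3624 in KO. Nqo1 was the lowest of the 10 in WT M0 and in both IL-4 groups, and in WT M2 (13.7 ± 5.07 TPM) it was the only one below the median of all genes (17.8 TPM).

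**Figure D1:**
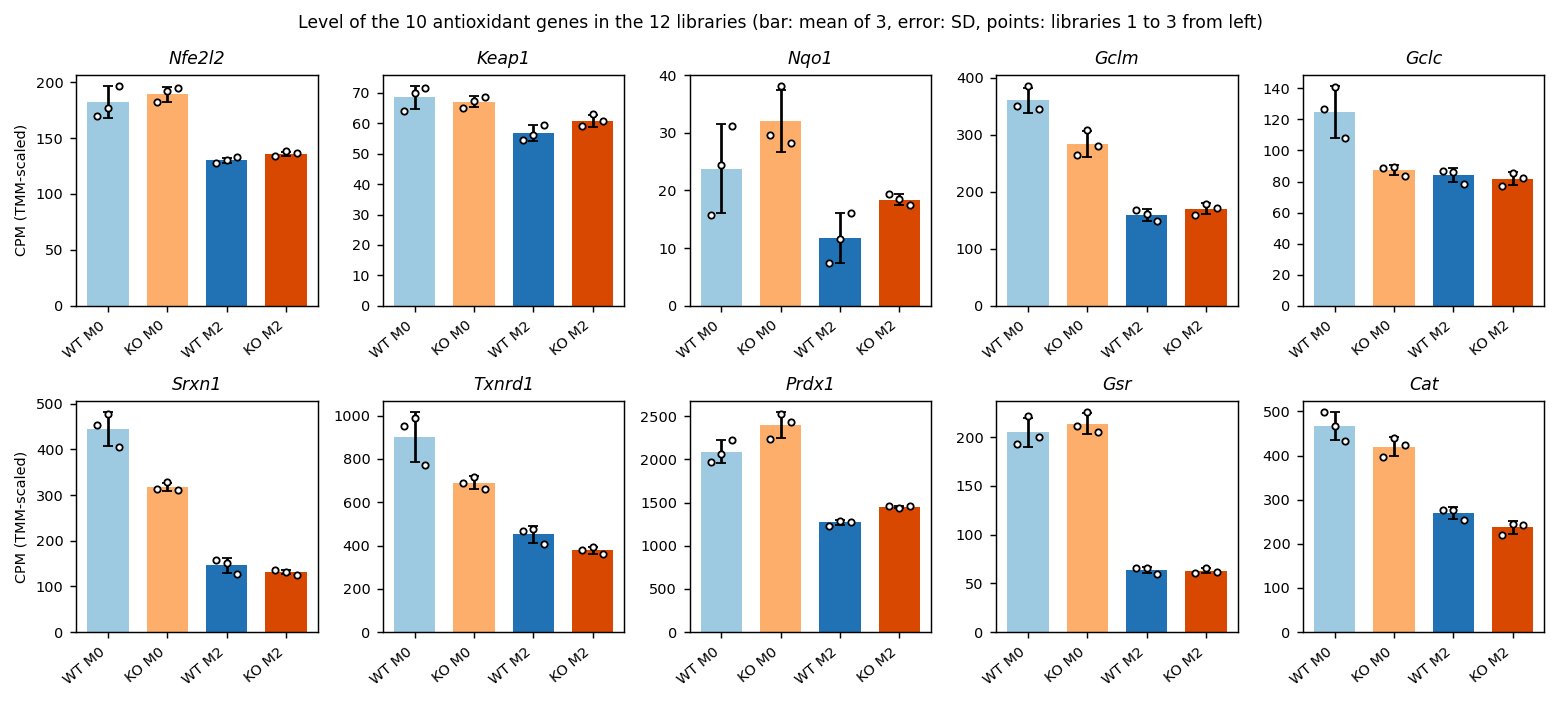
Level of each of the 10 genes in the 4 groups, in CPM scaled with TMM factors on linear axes that start at 0. Bars are means of 3 libraries, error bars are SD and the points are libraries 1, 2 and 3 from left to right. The means of the IL-4 groups are lower for each gene in each genotype, with overlapping libraries for Nqo1 in WT and Gclc in KO, and Nqo1 shows the widest spread between libraries of 1 group.

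The libraries held 20011792 to 39632770 counts, and the biological coefficient of variation was 8.08%. Macrophage markers other than Lyz2 summed to 5410 to 6340 CPM in every library, erythroid markers to at most 0.166 CPM, dendritic cell markers to at most 2.16 CPM and lymphocyte markers to at most 0.227 CPM. Of 11 IL-4 response genes found in the files, 11 rose in each genotype (summed 158 to 319 CPM in M0 and 7020 to 8450 CPM in M2). Igf2bp2, counted over the whole gene including the remaining exons, had a log2 fold change between KO and WT of -0.11 (edgeR adjusted p = 0.656) in M0 and -0.65 (edgeR adjusted p = 0.0285) in M2. By Western blot and qPCR, the study itself reported that IGF2BP2 protein and mRNA were nearly undetectable in KO BMMs. Lyz2, into which Cre is inserted, was lower in KO by a log2 fold change of -8.30 in M0 and -8.57 in M2. The KO libraries thus differed from the WT libraries in Lyz2 as well as in the targeting of Igf2bp2. The part of Lyz2, of Cre and of Igf2bp2 in the genotype differences was not tested. In libraries of whole cultures, fewer cells of a type and less RNA per cell cannot be told apart.

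IL-4 lowered the whole set in WT macrophages. All 10 genes fell, against 25.1% of the tested genes that fell and 50.0% that changed in either direction (edgeR quasi-likelihood test on counts, adjusted p < 0.05). Their log2 fold changes ranged from -1.69 to -0.27 with a median of -0.90, while the median of all genes was -0.01. In KO macrophages 9 of the 10 fell, against 26.0% of all genes that fell and 52.8% that changed, with a median of -0.77 against 0.01 for all genes. Gclc was the exception in KO. The groups did not overlap for 9 genes in WT and for 9 in KO, where all M2 libraries lay below all M0 libraries. This was the case for 27.3% of all genes in WT and 31.3% in KO. Within libraries of the same number, M2 was below M0 in 3 of 3 pairs for each gene in each genotype. The 10 neutrophil markers summed to 9.31 to 24.2 CPM in WT M0 and 5.67 to 14.4 CPM in WT M2, where 2 of the 5 tested fell and 1 rose. In KO they summed to 5.95 to 6.32 CPM in M0 and 5.69 to 7.06 CPM in M2, with 1 of 5 higher. The 7 dendritic cell markers summed to 0.259 to 0.662 CPM in WT M0 and 1.64 to 2.16 CPM in WT M2. In KO these summed to 0.398 to 0.624 CPM in M0 and 1.73 to 1.91 CPM in M2, and 1 of 1 tested rose in each genotype. The part of both marker lists in the fall of the antioxidant genes was not tested.

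**Figure D2:**
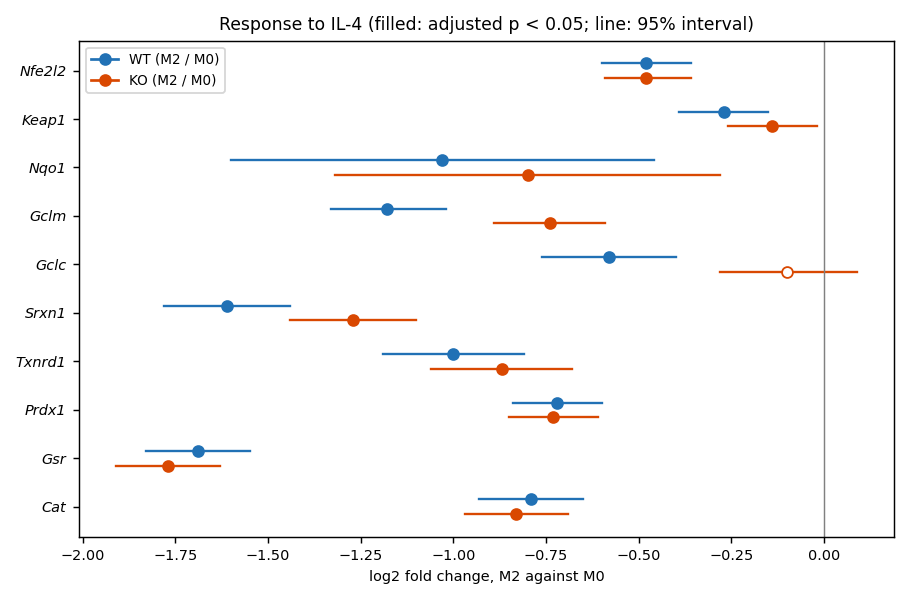
Change with IL-4 for each gene as log2 fold change of M2 against M0 in WT (blue) and KO (orange), with 95% intervals from the edgeR fit and filled points at adjusted p < 0.05. All points but that of Gclc in KO are filled, and Gsr and Srxn1 lie farthest from 0.

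Among the regulators, Nfe2l2 measured 170, 177 and 197 CPM in WT M0 and 128, 130 and 133 CPM in WT M2. In KO it was 182, 192 and 195 CPM in M0 and 134, 138 and 137 CPM in M2. The M0 and M2 libraries were fully separated in both genotypes, and the fall was of the same size in both. The log2 fold change was -0.48 (SE 0.05) in WT and -0.48 (SE 0.05) in KO, with edgeR adjusted p of 1.04e-05 and 8.52e-06. Keap1, the repressor of NRF2, changed least in WT, from 64.2, 70.0 and 71.5 CPM to 54.5, 56.3 and 59.6 CPM. In KO, Keap1 went from 65.2, 67.5 and 68.8 CPM to 59.1, 63.0 and 60.7 CPM. Its libraries also separated in both genotypes, by a narrow margin in KO. Its log2 fold change was -0.27 (SE 0.05, edgeR adjusted p = 0.00106) in WT and -0.14 (SE 0.05, edgeR adjusted p = 0.0413) in KO. The KO call was lost without a filter on low counts (adjusted p = 0.0526) and in 5 of the 12 fits without 1 library (adjusted p up to 0.13, reached without the third KO M0 library).

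Nqo1, a quinone reductase widely used as a readout of NRF2 activity, differed between libraries more than any other gene of the set. Its values were 15.7, 24.4 and 31.2 CPM in WT M0 and 7.41, 11.5 and 16.1 CPM in WT M2. In KO they were 29.6, 38.2 and 28.3 CPM in M0 and 19.4, 18.5 and 17.4 CPM in M2. In WT the M2 library 3 lay above the M0 library 1, so that the groups overlapped, whereas in KO they were separate. Within pairs the fall was alike in WT and more varied in KO, as the log2 ratios of M2 to M0 were -1.08, -1.08 and -0.96 for WT libraries 1 to 3 and -0.61, -1.05 and -0.70 for KO libraries 1 to 3. The log2 fold change was -1.03 (SE 0.26, edgeR adjusted p = 0.00569) in WT and -0.80 (SE 0.24, edgeR adjusted p = 0.0129) in KO. With the library number as a block within genotype, the SE in WT fell to 0.09 (edgeR adjusted p = 8.16e-06). In KO the call was lost without the second M0 library (log2 fold change -0.65, adjusted p = 0.0639). The within-group SD of Nqo1 was 0.395 on the log2 CPM scale, against a median of 0.109 over all tested genes and 0.0605 to 0.123 for the other 9.

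The glutathione genes fell to different extents. Gclm encodes the modifier subunit and Gclc the catalytic subunit of glutamate-cysteine ligase, the rate-limiting enzyme of glutathione synthesis. Gclm went from 350, 386 and 345 CPM to 168, 161 and 149 CPM in WT, and from 264, 308 and 280 CPM to 159, 179 and 172 CPM in KO. Its M0 and M2 libraries were widely separated, with log2 fold changes of -1.18 (SE 0.07, edgeR adjusted p = 3.22e-08) in WT and -0.74 (SE 0.07, edgeR adjusted p = 1.90e-06) in KO. Gclc went from 127, 141 and 108 CPM to 86.8, 86.1 and 78.7 CPM in WT. In KO it measured 88.9, 89.6 and 83.6 CPM in M0 and 77.2, 85.7 and 82.2 CPM in M2, and these overlapped. The log2 fold change of Gclc was -0.58 (SE 0.08, edgeR adjusted p = 8.75e-05) in WT and -0.10 in KO (95% interval -0.28 to 0.09, edgeR adjusted p = 0.364).

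The ratio of Gclm to Gclc in TPM was lower in every M2 library than in every M0 library. It was 7.02 ± 0.677 in WT M0 and 4.71 ± 0.25 in WT M2 (mean ± SD, n = 3), and 7.81 ± 0.792 in KO M0 and 5.21 ± 0.0309 in KO M2. The exact permutation test (two-sided) gave p = 0.1 for IL-4 in each genotype, which is the smallest p that 3 against 3 libraries allow. Between genotypes the exact test gave p = 0.2 in M0 and p = 0.1 in M2.

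Gsr encodes glutathione reductase, which returns oxidized glutathione to its reduced form, and had the largest fall of the set in both genotypes. It went from 193, 222 and 200 CPM to 65.3, 65.9 and 59.8 CPM in WT, and from 211, 226 and 205 CPM to 60.8, 65.6 and 61.7 CPM in KO. All M2 libraries thus lay at 65.9 CPM or less and all M0 libraries at 193 CPM or more. The log2 fold changes were -1.69 (SE 0.06, edgeR adjusted p = 4.45e-10) and -1.77 (SE 0.06, edgeR adjusted p = 2.23e-10), which is 3.22-fold lower in WT and 3.41-fold lower in KO. Only 1.96% of the tested genes fell more than Gsr in WT and 1.53% in KO.

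Among the thioredoxin and peroxiredoxin genes, Srxn1 had the largest fall. Srxn1 encodes sulfiredoxin, which repairs overoxidized peroxiredoxins. It went from 453, 478 and 405 CPM to 158, 151 and 128 CPM in WT, and from 313, 329 and 312 CPM to 136, 132 and 126 CPM in KO. The groups were far apart, with log2 fold changes of -1.61 (SE 0.08, edgeR adjusted p = 4.07e-09) in WT and -1.27 (SE 0.08, edgeR adjusted p = 3.09e-08) in KO. Txnrd1, the cytosolic thioredoxin reductase, went from 951, 988 and 772 CPM to 468, 477 and 408 CPM in WT and from 690, 719 and 661 CPM to 380, 395 and 361 CPM in KO. Its M0 and M2 libraries did not overlap, and its level in WT was second to Srxn1 in its fall, at a log2 fold change of -1.0 with an SE of 0.09 (edgeR adjusted p = 9.31e-07). In KO the log2 fold change of Txnrd1 was -0.87 (SE 0.09, edgeR adjusted p = 2.89e-06).

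Prdx1, the most abundant of the set, went from 1970, 2060 and 2230 CPM to 1230, 1290 and 1280 CPM in WT. In KO it went from 2240, 2530 and 2440 CPM to 1460, 1440 and 1460 CPM. The groups were separate, and the responses were near equal, at -0.72 (SE 0.06) in WT and -0.73 (SE 0.06) in KO on the log2 scale, with edgeR adjusted p of 3.02e-07 and 2.29e-07. Cat, the peroxisomal enzyme that breaks down hydrogen peroxide, went from 498, 468 and 434 CPM to 277, 277 and 255 CPM in WT and from 397, 439 and 425 CPM to 221, 246 and 243 CPM in KO. All M2 libraries of Cat lay below all M0 libraries. Its log2 fold changes were -0.79 (SE 0.06) in WT and -0.83 (SE 0.06) in KO, with edgeR adjusted p of 4.73e-07 and 2.76e-07. Cat is also abundant in red blood cells, whose markers were at or near 0 in every library, as given above.

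In untreated macrophages 4 genes of the set were lower and 1 was higher in KO than in WT. Gclc, Srxn1, Txnrd1 and Gclm were lower and Prdx1 was higher in KO, against 4.27% of the tested genes that were lower, 5.5% that were higher and 9.78% in either direction. The median log2 fold change of the set was -0.09 and that of all genes was 0.00. The libraries of WT and KO did not overlap for 5 of the 10 genes, the same 5, against 31.1% of all genes. The regulators Nfe2l2 and Keap1 were not called.

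**Figure D3:**
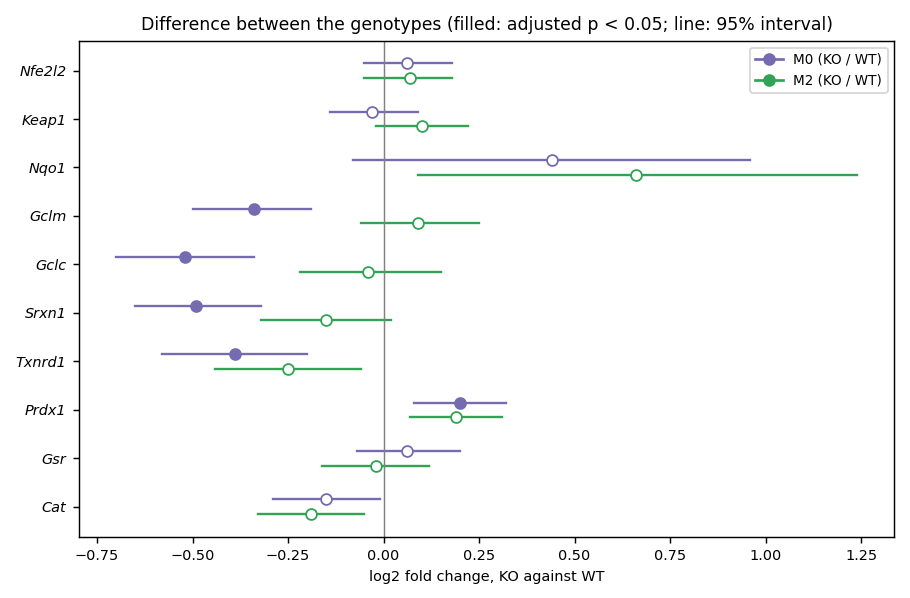
Difference between the genotypes for each gene as log2 fold change of KO against WT in M0 (purple) and M2 (green), with 95% intervals from the edgeR fit and filled points at adjusted p < 0.05. Gclm, Gclc, Srxn1 and Txnrd1 are filled to the left of 0 and Prdx1 to the right in M0, and no point is filled in M2.

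Gclc had the largest difference, at 127, 141 and 108 CPM in WT against 88.9, 89.6 and 83.6 CPM in KO. The lowest WT library, number 3, still lay above all KO libraries, and the log2 fold change was -0.52 (SE 0.08, edgeR adjusted p = 0.00291). Srxn1 followed at -0.49 (SE 0.08, edgeR adjusted p = 0.00265), from 405 to 478 CPM in WT and from 312 to 329 CPM in KO. These calls of Gclc and Srxn1 were kept in all 8 other settings and in all 12 fits without 1 library. Txnrd1 was lower by a log2 fold change of -0.39 with an SE of 0.09 (edgeR adjusted p = 0.0158), and Gclm by one of -0.34 with an SE of 0.07 (edgeR adjusted p = 0.0107). The calls of Txnrd1 and Gclm were both lost without the second WT M0 library (log2 fold change -0.31 and -0.28, adjusted p = 0.085 and 0.0651). Both were lost too without the first KO M0 library (log2 fold change -0.38 and -0.29, adjusted p = 0.0536 and 0.0529). That of Txnrd1 was also lost without the third KO M0 library (adjusted p = 0.0731) and with limma on log2(TPM + 0.1) (adjusted p = 0.0511). Without the second WT M0 library 2 of the 10 genes were called, and 461 over all genes. Without the first or the third KO M0 library 3 were called, and 745 and 563 over all genes. With all libraries 1256 genes were called.

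Gclm shares 4.71% of its exon bases with Gm17494 on the opposite strand, and the libraries come from a directional kit whose strand setting in counting was not given in the sources used here. Gm17494 measured 4.98, 3.09 and 27.0 CPM in WT M0 and at most 2.39 CPM in KO M0, while Gclm measured at least 264 CPM in each of these libraries. Gclm also shares 3.88% of its exon bases with the pseudogene Gm6061 (at most 1.71 CPM). Keap1 shares 10.9% of its exon bases with the antisense gene Gm16754 (at most 0.701 CPM).

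Prdx1 was higher in KO M0, with a log2 fold change of 0.20 and an SE of 0.06 (by edgeR adjusted p = 0.0357). The highest WT library (2230 CPM) lay just below the lowest KO library (2240 CPM), and the call was lost in 3 of 8 other settings and in 5 of 12 fits without 1 library, where adjusted p reached 0.156 without the second KO M0 library. Of the genes not called in M0, Nqo1 had the largest value, 0.44 (95% interval -0.08 to 0.96, edgeR adjusted p = 0.272), with overlapping libraries. Cat was at -0.15 (95% interval -0.29 to -0.01, edgeR adjusted p = 0.158). Nfe2l2, Keap1 and Gsr lay between -0.03 and 0.06, with intervals that reached from -0.14 to 0.20.

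Markers of other cells also differed between the genotypes in M0. The 10 neutrophil markers summed to 9.31 to 24.2 CPM in WT M0 and 5.95 to 6.32 CPM in KO M0, and 3 of the 5 tested were lower in KO (Ly6g was at 0 in every library). The 8 stromal markers summed to 37.7 to 65.4 CPM in WT M0 and 10.5 to 37.1 CPM in KO M0, with 0 of 7 tested called by edgeR. Their part in the differences of the antioxidant genes was not tested.

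In M2 macrophages no gene of the set differed between KO and WT at an adjusted p under 0.05, against 2.68% of all genes. At an unadjusted p under 0.05 there were 4, namely Nqo1, Txnrd1, Prdx1 and Cat, against 20.3% of all genes. DESeq2 called 1, Prdx1 (adjusted p = 0.019), against 6.09% of the genes to which it gave an adjusted p. The libraries did not overlap for 5 genes (24.8% of all genes). Nqo1 was the largest of these, with 7.41, 11.5 and 16.1 CPM in WT against 19.4, 18.5 and 17.4 CPM in KO. All KO libraries were above all WT libraries, but the log2 fold change of 0.66 had a 95% interval from 0.09 to 1.24 (edgeR adjusted p = 0.185). Txnrd1 was at -0.25 (95% interval -0.44 to -0.06, edgeR adjusted p = 0.136), Cat at -0.19 (95% interval -0.33 to -0.05, edgeR adjusted p = 0.135) and Prdx1 at 0.19 (95% interval 0.07 to 0.31, edgeR adjusted p = 0.0877). Txnrd1 (adjusted p = 0.0339) and Prdx1 (adjusted p = 0.0362) were called when the third WT M0 library was left out, which changes the spread shared by all groups. The 8 stromal markers summed to 40.6 to 73.6 CPM in WT M2 and 11.6 to 31.9 CPM in KO M2 without overlap, with 0 of 7 tested called by edgeR, and the neutrophil markers to 5.67 to 14.4 CPM and 5.69 to 7.06 CPM. Their part in the M2 values was not tested.

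Of the 4 genes that were lower in KO M0, Txnrd1 had the lowest log2 fold change in M2. Its libraries measured 468, 477 and 408 CPM in WT M2 and 380, 395 and 361 CPM in KO M2 without overlap, and it was called with the library number as a block (edgeR adjusted p = 0.0353), although the number did not pair the genotypes. Gclc was at -0.04 (95% interval -0.22 to 0.15) and Gclm at 0.09 (95% interval -0.06 to 0.25), and Srxn1 was at -0.15 (95% interval -0.32 to 0.02). The libraries of both genotypes overlapped for Gclc, Gclm and Srxn1, for example with 149 to 168 CPM of Gclm in WT M2 and 159 to 179 CPM in KO M2. Nfe2l2 (0.07), Keap1 (0.10) and Gsr (-0.02) had intervals within -0.16 and 0.22.

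The difference between the responses to IL-4 was tested directly. It was called for Gclc and Gclm, whose fall was smaller in KO, against 1.11% of all genes with a positive difference and 3.24% in either direction. For Gclm the response in KO minus that in WT was 0.44 on the log2 scale (SE 0.10, 95% interval 0.22 to 0.65, edgeR adjusted p = 0.0356). The log2 ratios of M2 to M0 were -1.06, -1.26 and -1.21 for WT libraries 1 to 3 and -0.73, -0.79 and -0.70 for KO. For Gclc the difference was 0.48 (SE 0.12, 95% interval 0.23 to 0.74, edgeR adjusted p = 0.0461), with log2 ratios of -0.55, -0.71 and -0.45 in WT and -0.20, -0.06 and -0.02 in KO. The ratios of the genotypes did not overlap for either gene. The call of Gclm was lost in 7 of the 12 fits without 1 library (adjusted p up to 0.106, without the second WT M0 library). That of Gclc was lost in 10 (adjusted p up to 0.122, without the third KO M0 library). Over the 12 fits the difference stayed between 0.37 and 0.5 for Gclm and between 0.38 and 0.58 for Gclc. Calls over all genes ranged from 183 to 643 in these fits, against 416 with all libraries. Both calls were also lost in 2 of 7 other settings, the limma fits on log2(TPM + 1) and log2(TPM + 0.1), with adjusted p of 0.141 and 0.143 for Gclm and 0.184 and 0.191 for Gclc.

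With the library number as a block within genotype, the difference was 0.44 for Gclm (SE 0.06, edgeR adjusted p = 0.00542). For Gclc it was 0.48 with that block (SE 0.08, edgeR adjusted p = 0.00828). Srxn1 was called as well (0.34, SE 0.06, edgeR adjusted p = 0.0112), while without the block it had an SE of 0.11 and an adjusted p of 0.121. Its log2 ratios of M2 to M0 were -1.52, -1.66 and -1.66 in WT against -1.21, -1.31 and -1.30 in KO, without overlap. The block thus gave 3 called genes in place of 2, and 1003 in place of 416 over all genes. For the other 7 genes the difference lay between -0.08 and 0.23, with the widest interval for Nqo1 (-0.55 to 1.00). The IL-4 responses and the genotype differences share their libraries, so they are not independent views of these genes.

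Within groups, the genes varied together in separate sets. For each library the deviation of log2 CPM from its group mean was taken, and Pearson r was computed over the 12 deviations as a description. Txnrd1 went with Gclc (r = 0.897) and with Srxn1 (r = 0.896), Gclm with Gsr (r = 0.840) and Nfe2l2 with Prdx1 (r = 0.860). Nfe2l2 and Txnrd1 moved in opposite directions (r = -0.740). Over the 45 pairs the median was 0.139, with 8 pairs above 0.7 and 19 below 0. Of all pairs of a gene of the set with any gene searched, 6.9% were above 0.7. The deviations share libraries, depth and scaling factors. The third WT M0 library had the lowest value of its group for Gclm, Gclc, Srxn1, Txnrd1 and Cat and the highest for Nfe2l2, Keap1, Nqo1 and Prdx1. The third WT M2 library, taken as its pair, was lowest for Gclm, Gclc, Srxn1, Txnrd1, Gsr and Cat and highest for Nfe2l2, Keap1 and Nqo1. The 12 deviations thus include pairs and are not independent.

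**Figure D4:**
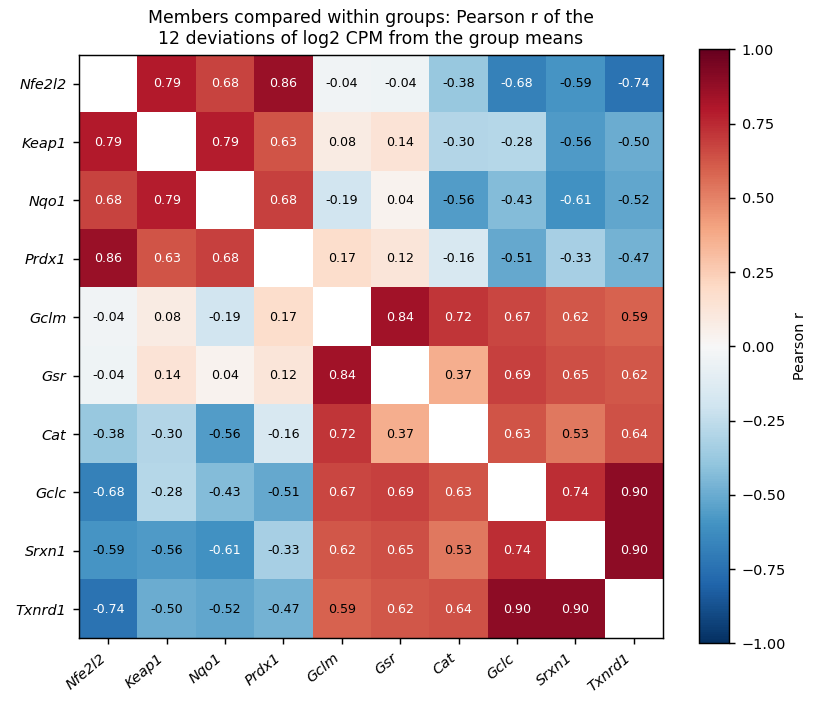
Pearson r between each pair of the 10 genes over the 12 deviations of log2 CPM from the group means, from -1 (blue) to 1 (red). Nfe2l2, Keap1, Nqo1 and Prdx1 form a block with r from 0.63 to 0.86, and Gclm, Gsr, Cat, Gclc, Srxn1 and Txnrd1 form a second one with r from 0.37 to 0.90.

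Over the 12 libraries as they stand, the genes most alike in log2 CPM were named among 9746 genes averaging 5 CPM or more, and these values include the differences between the groups. For Srxn1 they were Itga5 (r = 0.995), BC005537 (0.992) and Smad3 (0.992), for Gsr Elk3, Fcrl1 and Slc20a1 (0.996 each), and for Gclm Nlrp3 (0.992), Tnip1 (0.991) and Lztfl1 (0.990). For Prdx1 they were Msrb1 (0.994), Gdpd1 (0.993) and Akr1b8 (0.991). Groups explained 74.4% of the variance of Nqo1 and 83.0% to 99.4% of that of the other 9, with a median of 72.9% over all tested genes.

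Genes around the set were counted in lists of known regulators, targets and enzymes, from which members of the set were left out. Of 39 other NRF2 target genes tested, 25 fell and 6 rose with IL-4 in WT (median log2 fold change -0.47) and 23 fell and 6 rose in KO (median -0.30). Over all tested genes the medians were -0.01 and 0.01, and 24.9% rose and 25.1% fell in WT and 26.8% rose and 26.0% fell in KO. Among called targets averaging 5 CPM or more, the largest falls in WT were seen for Slc7a11, the cystine transporter (-1.63, edgeR adjusted p = 3.33e-06), Gsta3, a glutathione S-transferase (-1.24, edgeR adjusted p = 1.38e-05) and Pir (-1.08, edgeR adjusted p = 3.25e-05). Hmox1, the heme-degrading oxygenase, fell from 1450 ± 131 to 901 ± 144 CPM (mean ± SD, n = 3) in WT and from 1430 ± 35.0 to 604 ± 89.6 CPM in KO. On the log2 scale these changes were -0.69 in WT (edgeR adjusted p = 0.000356) and -1.25 in KO (edgeR adjusted p = 1.92e-06). Tbxas1, thromboxane synthase, had the largest rise at that level, by 1.44 in WT and 1.31 in KO on the log2 scale (edgeR adjusted p = 1.24e-08 and 2.66e-08). It was followed by Idh1 (0.66) and Ephx1 (0.48) in WT and by Ephx1 (0.73) and Tkt (0.23, lost in 2 of 8 other settings) in KO. In KO the largest falls at that level were those of Gsta3 (-1.35), Hmox1 and the aldo-keto reductase Akr1b8 (-0.92, edgeR adjusted p = 3.37e-08). Below 5 CPM and chosen after their values were seen, Ggt5 (mean 3.77 CPM) rose by 2.12 and 2.58, and Aox1 (mean 0.57 CPM) fell by 2.28 in WT and 1.15 in KO.

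**Figure D5:**
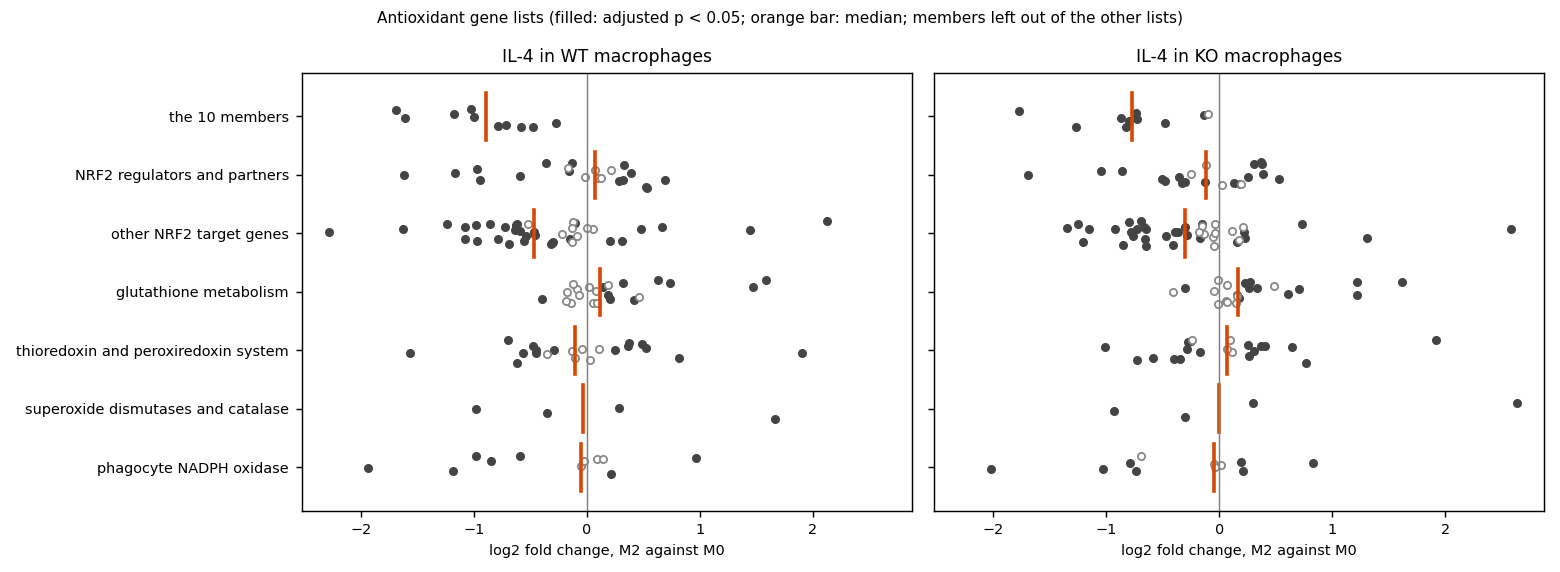
Change with IL-4 (log2 fold change of M2 against M0) of every tested gene in the set and in the related lists, in WT (left) and KO (right), with filled points at adjusted p < 0.05 and an orange bar at the median of each list. Points are spread vertically at random for legibility. The 10 genes of the set and the other NRF2 targets have medians below 0, and the remaining medians lie between -0.12 and 0.16.

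Of 21 regulators and partners of NRF2 tested, 7 rose and 8 fell in WT and 8 rose and 9 fell in KO, with medians of 0.07 and -0.12, against the shares of all genes given above (24.9% and 25.1% in WT, 26.8% and 26.0% in KO). Sqstm1 encodes p62, which sequesters KEAP1, and is itself an NRF2 target. It fell from 887 ± 51.6 to 460 ± 52.1 CPM in WT (log2 fold change -0.95, edgeR adjusted p = 3.47e-07) and from 679 ± 28.8 to 486 ± 17.1 CPM in KO (-0.48, edgeR adjusted p = 0.000122). Mafg, a small MAF partner, fell by 0.36 and 0.33 on the log2 scale, with CPM of 173 ± 3.55 and 135 ± 7.07 in WT M0 and M2 and 170 ± 4.80 and 135 ± 2.09 in KO. Cul3, the ligase scaffold, fell by 0.16 in WT (edgeR adjusted p = 0.0107, lost in 2 of 8 other settings) and by 0.30 in KO (edgeR adjusted p = 9.42e-05). Bach1, a repressor that competes at antioxidant response elements, was at -0.02 in WT (edgeR adjusted p = 0.824) and fell by 0.36 in KO (edgeR adjusted p = 0.000247), and the difference of these responses missed the threshold (-0.34, edgeR adjusted p = 0.0514) but passed it in 5 of 7 other settings (adjusted p from 0.00717 to 0.188). Gsk3b, a kinase that marks NRF2 for degradation, rose by 0.69 in WT and 0.39 in KO (edgeR adjusted p = 5.40e-06 and 0.000518). Btrc, the F-box protein that then recognizes NRF2, rose by 0.53 in each genotype, and Sesn2, a sestrin, by 0.52 and 0.37. The small MAF partners did not move one way, as Maff (mean 6.03 CPM) fell by 0.97 and 0.51 and Mafk rose by 0.28 and 0.38. Palb2, a binding partner of KEAP1, fell by 0.59 in WT and 0.86 in KO.

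Of 22 other genes of the glutathione list tested, 9 rose and 1 fell in WT and 11 rose and 1 fell in KO, against 24.9% and 25.1% of all genes in WT and 26.8% and 26.0% in KO, with medians of 0.11 and 0.16. Several glutathione transferases were counted with the NRF2 targets instead, and of these Gsta3 (-1.24 and -1.35), Mgst2 (-1.08 and -1.21), Mgst3 (-0.62 and -0.29) and Gstm1 (-0.32 and -0.17) fell in both genotypes and Gstp1 in WT (-0.31). Gsto1, a glutathione transferase of the omega class, rose by 1.58 and 1.62 on the log2 scale (edgeR adjusted p = 8.40e-11 and 6.61e-11). Ggct rose by 0.63 and 0.70 and Glrx3 by 0.42 and 0.33, whereas Gss, glutathione synthetase, fell in KO (-0.30, edgeR adjusted p = 0.00989). Gpx1, an abundant glutathione peroxidase, was at 0.19 in WT (edgeR adjusted p = 0.17) and 0.07 in KO (edgeR adjusted p = 0.622). Of 21 thioredoxin and peroxiredoxin genes, 7 rose and 8 fell in WT and 8 rose and 9 fell in KO, beside the same shares of all genes. Txn1, the substrate of Txnrd1, fell by 0.48 and 0.40, while Txnip, its inhibitor, rose by 0.81 and 0.77 and Nxn, nucleoredoxin, by 1.90 and 1.92. Txnrd2, the mitochondrial thioredoxin reductase, rose by 0.25 (lost in 2 of 8 other settings) and 0.40. Msrb1 (-0.70 and -0.73), Prdx5 (-0.62 and -0.59) and Msra (-0.57 and -0.25) fell in both genotypes.

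Beside Cat, the 4 genes of the superoxide dismutase list split evenly, with 2 higher and 2 lower in each genotype. Sod2, the mitochondrial form, fell by 0.98 in WT and 0.93 in KO on the log2 scale, Sod1, the cytosolic form, fell by 0.35 and 0.30, and Ccs, the copper chaperone of Sod1, rose by 0.28 and 0.30. Of 11 genes of the phagocyte NADPH oxidase, the source of superoxide, 2 rose and 5 fell in WT and 3 rose and 4 fell in KO, where 24.9% and 25.1% of all genes rose and fell in WT and 26.8% and 26.0% in KO. Cybb, its catalytic subunit, fell by 0.98 in WT (edgeR adjusted p = 4.54e-05) and 1.03 in KO (edgeR adjusted p = 2.51e-05), Ncf1 fell by 0.85 and 0.79, and Ncf4 rose by 0.96 and 0.83. Cybc1, a chaperone of the Cybb protein, rose by 0.21 in each genotype, and Rac2, the GTPase of the oxidase, rose in KO (0.19, edgeR adjusted p = 0.0355), with both KO calls lost in 2 of 8 other settings.

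Between the genotypes few genes of these lists were called. In M0 the other NRF2 targets had 2 higher and 1 lower of 39, which is no more than the 5.5% higher and 4.27% lower over all genes. The lower one was Slc7a11 (-0.51, edgeR adjusted p = 0.0464), with Gsta3 (0.55, edgeR adjusted p = 0.02) and Taldo1 (0.19, edgeR adjusted p = 0.0135) higher. Sqstm1 was lower in KO M0 (-0.39, edgeR adjusted p = 0.00727) and the only regulator called for the difference of responses (0.46, edgeR adjusted p = 0.0312). Syvn1 (0.28) and Fbxw7 (0.25) were the regulators higher in KO M0. Gss (0.46, edgeR adjusted p = 0.00704) and Hagh (0.18, edgeR adjusted p = 0.0414) were the called genes of the glutathione list, and Prdx5 (0.40, edgeR adjusted p = 0.04) and Msrb1 (0.23, edgeR adjusted p = 0.0369) those of the thioredoxin list, all higher in KO.

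Cybb was higher in KO in both treatments, at 345 ± 25.8 CPM in WT M0 and 531 ± 40.5 CPM in KO M0, and at 175 ± 20.0 CPM in WT M2 and 261 ± 54.0 CPM in KO M2 (mean ± SD, n = 3). The log2 fold changes were 0.62 (SE 0.13, edgeR adjusted p = 0.0113) and 0.58 (SE 0.13, edgeR adjusted p = 0.04). In M2 the other NRF2 targets had 4 higher and 1 lower of 39, against 1.21% higher and 1.46% lower over all genes. Hmox1 was the lower one (-0.58, edgeR adjusted p = 0.0285), and Ggt5 (mean 3.77 CPM) had the largest value of the higher ones (0.61, edgeR adjusted p = 0.0254). The other 3 were Osgin1 (0.38, edgeR adjusted p = 0.0427), Gstm1 (0.26, edgeR adjusted p = 0.0488) and Taldo1 (0.19, edgeR adjusted p = 0.0373). Palb2 (-0.32) was the regulator called in M2, and Hagh (0.21) the glutathione gene. Of the 12 genes of these lists selected as called between the genotypes in M0, 5 kept their call in all 8 other settings (Sqstm1, Cybb, Gss, Syvn1 and Taldo1). Of the 7 selected in M2, 0 kept it in all 8, and the call of Sqstm1 for the difference of responses was lost in 2 of 7.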

How the data were processed

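RNA-Seq of 12 BMM libraries was analysed. For each library the authors deposited a table of 38887 genes with expected counts (estimated reads per gene, in which a read shared by several genes is divided) and TPM. Per the study's methods, reads were checked with FastQC 0.11.2, passed through the Grape-nf pipeline under Nextflow and aligned to GRCm38/mm10. The quantifier, and the annotation release behind the counts, were not given in the sources used here (a GENCODE release is named there for a step on UTRs only). The authors also deposited DESeq2 (1.40.2) tables with log2 fold changes, p-values and other results of their own comparisons, of which only gene symbols were used here. GENCODE M21 supplied further symbols.

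Expected counts were rounded and fitted with edgeR 4.0.16 (TMM factors, filterByExpr, quasi-likelihood test, all 12 libraries with a coefficient for each of the 4 groups) on 12846 genes in R 4.3.3. CPM are scaled with TMM factors. Adjustment was by Benjamini-Hochberg over the 12846 genes, with calls at adjusted p below 0.05. Each SE was derived from the log2 fold change and the F value, and the test was checked on simulated counts. Group overlap was judged in CPM. Alternatives were DESeq2 1.42.0, RLE factors, 2 other filters (none, and at least 1 CPM in 3 libraries), limma 3.58.1 on log2(TPM + 1) or with 0.1 in place of 1, a replicate block, only the 6 libraries of a comparison, and leaving out each library.

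Correlations of deviations from the group means were 0.331, 0.103 and 0.364 for WT libraries of the same number in M0 and M2, and 0.166, 0.16 and 0.209 for KO, so the number was taken as a pair. With a prior count of 0.5 in place of 2 the second WT pair gave 0.086. Between genotypes they lay between -0.068 and 0.04, and the number did not pair them.

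The genes of the set and all lists were chosen with earlier results of these data known. From each list, fixed examples and up to 3 called genes per direction with the largest change and a mean of at least 5 CPM were named, except for an item that is not reported here. Sequences came from RefSeq promoter windows, with no genome sequence used here. The study's protein, flux and tumour data were not analysed here.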

Additional observations from a re-analysis of the deposited data

Results flagged for a closer look

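For Gclm and Gclc the test of the difference itself separated the IL-4 responses of WT and KO. For Gclm the response in KO minus that in WT was 0.44 on the log2 scale (edgeR adjusted p = 0.0356), with a fall in 3 of 3 pairs in both genotypes. For Gclc the difference was 0.48 (edgeR adjusted p = 0.0461), and the fall was called in WT but not in KO. Over the other settings the adjusted p ranged from 0.00288 to 0.143 for Gclm and from 0.00748 to 0.191 for Gclc.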

How the results depend on the processing

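The calls for IL-4 in WT were kept for all 10 genes under every setting and in every fit without 1 library. In KO, 7 to 9 genes were called without 1 library. In M0, limma on log2(TPM + 0.1) called 3 of the 10 genes, and 2 to 5 were called without 1 library. In M2, DESeq2 called 1 and the replicate block called 1 (Txnrd1, adjusted p = 0.0353), and 0 to 2 were called without 1 library. For the difference of responses both limma fits called 0, with 0 to 2 called without 1 library. Over all genes M0 gave 1256 calls, with 752 and 700 by limma on log2(TPM + 1) and log2(TPM + 0.1), and 461 (without the second WT M0 library) to 1461 without 1 library. M2 gave 344, with 718 by DESeq2, 70 and 57 by limma, 165 with only its 6 libraries, and 25 (without the third KO M2 library) to 761 (without the third WT M0 library) without 1 library. The difference gave 416, with 810 by DESeq2, 113 by either limma fit, 1003 with the replicate block on paired libraries, and 183 (without the second WT M0 library) to 643 without 1 library. The block on the library number, which did not pair the genotypes, gave 1322 calls in M0 and 413 in M2, and changed no other call of the 10 genes there. The block within genotype changed only the call of Srxn1 for the difference. Signs turned only for values that were not called. In the difference Nfe2l2 moved from 0.00 to -0.02 with both limma fits and to 0.00 with DESeq2 and RLE factors, and without 1 library it ranged from -0.06 to 0.05, Nqo1 from -0.03 to 0.53, Prdx1 from -0.07 to 0.03 and Cat from -0.09 to 0.01. Without 1 library Keap1 ranged from -0.07 to 0.00 in M0, and Gclc from -0.08 to 0.00 and Gsr from -0.06 to 0.00 in M2. The cause was not tested. Exact 3-against-3 permutation cannot give a p under 0.1, and the lowest count of the 10 genes was 163.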
